A study of Arabidopsis thaliana with 8 samples.

Results

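Roots of hy5 mutant Arabidopsis thaliana seedlings were compared with and without the cytokinin benzyladenine (BA). This comparison used 4 of the 8 libraries of the study. They were all the libraries of the groups hy5 BA (hy5 genotype, 0.1 uM BA, 2 libraries) and hy5 Control (hy5 genotype, vehicle medium without BA, 2 libraries). The 4 wild-type libraries, WT BA (0.1 uM BA, 2 libraries) and WT Control (vehicle medium, 2 libraries), entered the same statistical fit and served as a comparison. All 4 groups shared the same handling: seedlings grew vertically for 1 week on solid 0.5x MS medium, roots were cut from shoots with a scalpel, and the cut roots were put into liquid MS medium. So both the BA and the Control roots were wounded and submerged. The hy5 allele and the length of the treatment were not stated in the sources used here. Nothing in the labels says that the pair of libraries in each group stems from different cultures or plants. The p-values therefore cover the spread seen among these libraries, and that spread may be technical.

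HY5 (ELONGATED HYPOCOTYL 5) is a bZIP transcription factor of the light response that binds promoters with ACGT-core sites. Cytokinins are sensed by histidine kinase receptors, whose signal passes through histidine phosphotransfer proteins to nuclear response regulators. The type-B response regulators are transcription factors that switch on target genes, and among these targets are the type-A response regulators, which dampen the signal, and enzymes that break cytokinin down. In roots cytokinin restrains meristem size and lateral root formation and interacts with auxin and ethylene. Adenine-type cytokinins with an isoprenoid side chain are made in the plant by isopentenyltransferases and LOG enzymes. BA carries an aromatic benzyl group instead.

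Messenger RNA was sequenced after oligo-dT selection, and the authors deposited estimated read counts per transcript, which were added up per gene. Totals were 31458552 to 35289411 estimated counts in the hy5 libraries and 29928501 to 33875892 in the WT libraries. Of 27628 genes in the tables, 22682 passed the filter on low counts and were tested. Levels are given as CPM, counts relative to the library total after scaling by the TMM method. Differences are log2 fold changes, BA over Control, with the standard error (SE) of the fit and n = 2 libraries in each group. A gene was called higher or lower where edgeR's quasi-likelihood test gave a Benjamini-Hochberg adjusted p below 0.05. Estimated counts that were not whole but lay within 0.001 of a whole number were more frequent in hy5 BA 2 and hy5 Control 1. They made up 23.5% and 21.6% of all 48332 transcripts there, zeros included, against 1.34% to 1.53% in the other 6 libraries. These 2 libraries stand on opposite sides of the comparison, so the main counts are also given without them.

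HY5 itself was at 1.97 and 0.989 CPM in the hy5 BA libraries and at 0.826 and 0.931 CPM in the hy5 Control libraries. In the wild type it was at 31 and 31.3 CPM in WT BA and at 32.4 and 31.1 CPM in WT Control. All 4 libraries labelled hy5 were far below all 4 WT libraries. Between the hy5 groups the difference of HY5 was 0.77 ± 0.28 (log2, SE; adjusted p = 0.0997), with the higher value in hy5 BA 1. HYH, the closest homologue of HY5, was at 1.75 and 1.7 CPM in hy5 BA against 1.13 and 1.55 CPM in hy5 Control (0.36 ± 0.21, adjusted p = 0.316). Without hy5 BA 2 the adjusted p of HY5 was 0.00607, so its call rests on which hy5 BA library is used.

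BA changed 2523 of the 22682 genes tested in hy5 roots, which is 11.1% (edgeR, adjusted p below 0.05). Of these, 706 genes (3.11%) were higher and 1817 (8.01%) were lower. Most changes were small. The called genes that rose had a median log2 fold change of 0.52 (interquartile range 0.34 to 0.89), and those that fell had a median of -0.43 (-0.61 to -0.33). At least 2-fold changes were called in the higher direction for 140 genes (0.617%) and in the lower direction for 100 genes (0.441%). Among the called genes, 151 of the higher and 413 of the lower ones changed by less than 1.25-fold. At an adjusted p below 0.01, 310 genes were higher (1.37%) and 1043 lower (4.60%). Over all genes tested the median log2 fold change was 0.02, and 54.2% of the values were above 0.

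The number of calls depended on single hy5 libraries. Without hy5 Control 1 there were 281 higher and 1074 lower genes, and without hy5 Control 2 there were 331 higher and 860 lower genes. Without hy5 BA 1 the counts were 440 higher and 1457 lower, and without hy5 BA 2 they were 316 higher and 772 lower. Leaving out a hy5 library leaves 1 in its group, which lowers the power of the test by construction, and the lone library is assumed to vary like the other groups. With each of the 8 libraries left out in turn, 196 of the higher genes and 631 of the lower genes were called every time, among them 85 of the 140 genes at least 2-fold higher and 69 of the 100 genes at least 2-fold lower. Without hy5 Control 1 and hy5 BA 2 together, 157 of the higher and 386 of the lower genes were still called. In that fit each hy5 group holds 1 library, so the spread comes from the WT pairs alone and the hy5 roots have no replicate check. Scaling by library size alone, in place of TMM, moved the balance to 1712 higher and 1285 lower genes, while it moved the median of all genes by 0.0827 on the log2 scale.

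Genes that fell were more often highly expressed. The genes were divided into 5 groups of equal size by mean level. From the lowest to the highest group, 2.14%, 3.55%, 4.43%, 2.91% and 2.53% were called higher, and 1.9%, 4.25%, 7.25%, 10.2% and 16.5% were called lower. The median log2 fold change was 0.12, 0.06, 0.04, 0.00 and -0.04 in the same order. Depth per gene also increases along this order, and its part in the shares was not tested.

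**Figure D1:**
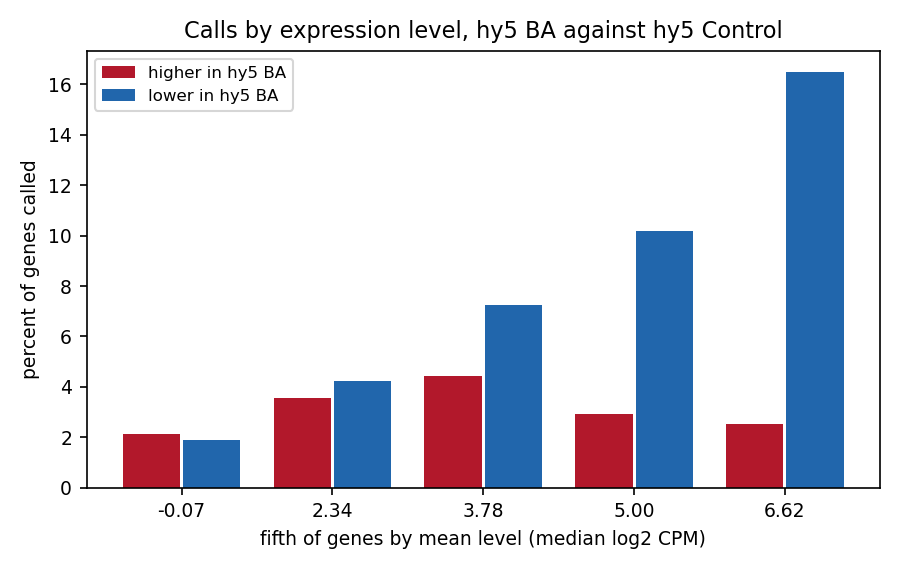
Percent of tested genes called higher (left bars) and lower (right bars) in hy5 BA against hy5 Control, for 5 equal groups of genes by mean level, labelled on the x axis with the median log2 CPM of the group. The lower calls climb with level, reaching 16.5% in the top group, while the higher calls peak in the middle group at 4.43%.

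Genes were ranked by fold change among those called, without overlap of the hy5 groups and with an average log2 CPM of at least 1. The largest BA response in this ranking was that of AT1G19040, a gene annotated as a NAC domain transcription regulator. It was at 27.0 and 26.9 CPM in hy5 BA, against 1.19 and 1.55 CPM in hy5 Control. The values within each group were close and far apart between the groups, and the difference was 4.29 ± 0.15 (log2, SE; adjusted p = 9.06e-11). AT1G19040 lies on the plus strand of chromosome 1 (6576077 to 6577413), and ARR7, a type-A response regulator on the minus strand (6577833 to 6579314), ends 419 bases from it, tail to tail. Both were among the 12 genes with the largest increase in this ranking.

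The proximal promoters of some genes with large changes are shown because type-B response regulators are known to bind AGAT-core sites. A reader can so see where such letters stand. Each is the 250 bases before the annotated start, 5′ to 3′ on the gene's own strand, from the RefSeq copy of the TAIR10.1 genome. Capitals mark AGATT and AGATC and the same motifs on the other strand (AATCT and GATCT). The first 5 are the NAC gene and leading cytokinin-response genes that rose, and the last pair are genes that fell. They were picked by hand and not by rank. AT1G34520 (2.86) and AT1G06980 (2.63) rose more than ASL9 (2.3) and are not shown. In the ranking above, AT2G43890, AT1G64380, AT5G38790, RTFL5 and AT3G45530 (-1.96 to -1.67) fell more than ERF53 (-1.66) and are not shown.
AT1G19040, chr1:6575827-6576076, plus strand: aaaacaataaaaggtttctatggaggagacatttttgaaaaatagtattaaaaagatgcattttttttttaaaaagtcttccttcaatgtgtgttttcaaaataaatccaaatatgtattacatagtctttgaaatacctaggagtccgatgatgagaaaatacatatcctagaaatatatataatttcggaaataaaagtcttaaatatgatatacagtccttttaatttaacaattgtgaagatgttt
ARR7, chr1:6579315-6579564, minus strand: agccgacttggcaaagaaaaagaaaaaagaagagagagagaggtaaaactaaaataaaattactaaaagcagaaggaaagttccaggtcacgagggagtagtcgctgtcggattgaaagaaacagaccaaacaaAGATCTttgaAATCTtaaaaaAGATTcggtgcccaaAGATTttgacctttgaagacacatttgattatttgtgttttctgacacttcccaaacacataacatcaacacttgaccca
ARR5, chr3:17760951-17761200, minus strand: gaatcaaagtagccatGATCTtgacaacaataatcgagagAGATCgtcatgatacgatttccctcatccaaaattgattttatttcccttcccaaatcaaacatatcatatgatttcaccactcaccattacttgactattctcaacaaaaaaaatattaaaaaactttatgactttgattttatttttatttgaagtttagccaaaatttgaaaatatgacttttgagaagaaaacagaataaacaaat
ARR6, chr5:25254319-25254568, minus strand: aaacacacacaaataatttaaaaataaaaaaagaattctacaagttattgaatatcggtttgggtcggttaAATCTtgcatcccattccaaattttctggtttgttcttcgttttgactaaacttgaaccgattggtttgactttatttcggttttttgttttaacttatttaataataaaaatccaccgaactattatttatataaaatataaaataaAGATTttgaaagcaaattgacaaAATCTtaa
ASL9, chr1:5652884-5653133, minus strand: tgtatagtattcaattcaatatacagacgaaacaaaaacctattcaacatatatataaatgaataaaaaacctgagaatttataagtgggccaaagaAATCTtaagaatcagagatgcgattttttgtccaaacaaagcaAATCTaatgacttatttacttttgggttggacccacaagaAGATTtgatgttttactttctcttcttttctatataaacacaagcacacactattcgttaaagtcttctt
AT2G41810, chr2:17441417-17441666, minus strand: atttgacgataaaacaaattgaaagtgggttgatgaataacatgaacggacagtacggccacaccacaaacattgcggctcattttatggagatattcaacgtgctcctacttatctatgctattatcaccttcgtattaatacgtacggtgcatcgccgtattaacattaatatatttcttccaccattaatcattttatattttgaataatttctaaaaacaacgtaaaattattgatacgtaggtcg
ERF53, chr2:8985709-8985958, plus strand: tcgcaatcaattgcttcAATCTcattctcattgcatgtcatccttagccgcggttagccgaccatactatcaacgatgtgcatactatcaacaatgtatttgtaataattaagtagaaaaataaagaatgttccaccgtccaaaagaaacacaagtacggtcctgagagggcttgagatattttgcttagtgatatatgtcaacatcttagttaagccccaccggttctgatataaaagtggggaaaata

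Within these 250 bases ARR7 held 5 matches, ARR6 and ASL9 held 3 each, ARR5 held 2 and AT1G19040 held 0. In ARR7 the stretch AGATCT reads as AGATC on both strands and counts as 2 of the 5. Of the shown genes that fell, ERF53 held 1 and AT2G41810 held 0. These counts describe the picked genes alone. Over windows of 300 bases, 250 before and 50 after the start, AGATT on either strand was present in 80.0% of the 140 genes at least 2-fold higher and in 62.0% of the 100 genes at least 2-fold lower, against 69.3% of all 22533 windows of tested genes. AGATC was present in 43.6% of the same higher genes and in 26.0% of the same lower genes, against 31.3% of all windows. CACGTG, the G-box, was present in 7.14% and 6.0% of these sets and in 8.41% of all windows, and ACGT in 47.9% and 53.0%, against 50.7%. CACGTG contains ACGT, so these counts overlap. Among all called genes, CACGTG was present in 11.1% of 692 higher and 8.59% of 1817 lower windows, and ACGT in 51.7% and 54.9%, so the higher genes lay above all windows for CACGTG here and below them in the 2-fold set. A match describes letters only, and mean GC content differed little (30.9% in the higher set, 31% in the lower set and 32.2% in all windows).

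The other genes with the largest increases included known cytokinin-response genes and genes with little annotation. ASL9, an LBD-type transcription factor known to respond to cytokinin, was at 16 and 14.4 CPM in hy5 BA against 2.39 and 3.79 CPM in hy5 Control (2.3 ± 0.15, adjusted p = 5.15e-07). AT1G68360, a C2H2 zinc finger gene, was at 9.08 and 8.53 CPM in hy5 BA against 1.81 and 2.05 CPM in hy5 Control (2.19 ± 0.14, adjusted p = 9.62e-08). RTFL7, of the ROTUNDIFOLIA-like small peptides that limit cell proliferation when overproduced, was at 1.86 and 2.04 CPM in hy5 BA against 0.428 and 0.466 CPM in hy5 Control (2.11 ± 0.25, adjusted p = 3.47e-05). In none of the 3 did the groups overlap, which is also true of 28.6% of all tested genes in the higher direction and 27.4% in the lower. All 706 higher and all 1817 lower calls in hy5 were without overlap, so a lack of overlap adds nothing to a call. AT1G34520, annotated as a membrane-bound O-acyltransferase, differed by 2.86 ± 0.21, and 17.7% of the 31-base words of its transcripts also occur in other genes, mostly AT1G34490. AT1G06980, annotated as a lumazine synthase, differed by 2.63 ± 0.21. AT3G53960, of the major facilitator transporter family, was at 22.4 and 17.0 CPM in hy5 BA against 4.19 and 4.69 CPM in hy5 Control (2.15 ± 0.29, adjusted p = 0.00645), and its call was lost without hy5 Control 1.

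**Figure D2:**
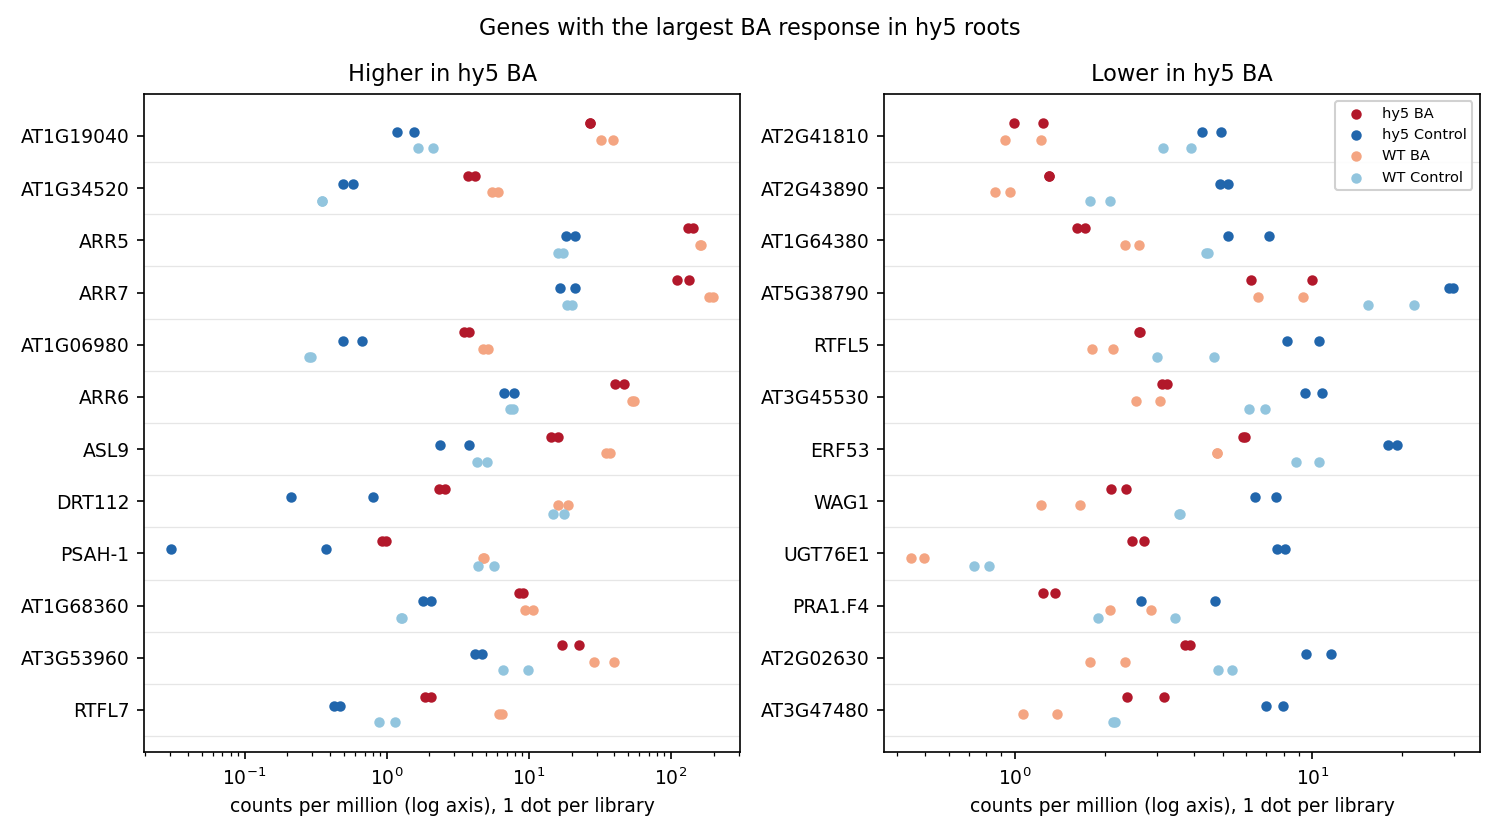
CPM (log axis, 1 dot per library) of the 12 genes with the largest increase and the 12 with the largest decrease in hy5 BA. The reference is hy5 Control, and the WT libraries are in paler colours. Only called genes without overlap of the hy5 groups and with an average log2 CPM of at least 1 were ranked. AT1G19040 stands near 27.0 CPM in both hy5 BA libraries and below 1.55 CPM or at it in both hy5 Control libraries, and DRT112 and PSAH-1 have their widest spread between the hy5 Control libraries.

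In the same ranking, the largest decreases were smaller than the largest increases. AT2G41810, of a DUF642 cell wall protein family, was at 1.24 and 0.989 CPM in hy5 BA against 4.93 and 4.25 CPM in hy5 Control (-2.03 ± 0.20, adjusted p = 7.32e-06). AT2G43890, a pectin lyase-like gene that overlaps AT2G43900, was at 1.3 CPM in both hy5 BA libraries against 5.20 and 4.90 CPM in hy5 Control (-1.96 ± 0.17, adjusted p = 2.54e-06). Both genes fell, 4.09-fold and 3.89-fold. AT1G64380, annotated as an integrase-type DNA-binding protein (-1.89 ± 0.18), the transcription factor gene ERF53 (-1.66 ± 0.11), the small peptide gene RTFL5 (-1.83 ± 0.19) and the auxin-transport kinase WAG1 (-1.64 ± 0.16) fell too. ERF53, of the drought-responsive DREB group, was at 5.95 and 5.84 CPM in hy5 BA against 19.3 and 18.0 CPM in hy5 Control (adjusted p = 9.77e-08). Genes for C1 domain proteins, AT3G45530 (-1.67 ± 0.14) and AT2G02630 (-1.47 ± 0.14), and for the EF-hand protein AT3G47480 (-1.42 ± 0.16) completed this set with UGT76E1 (-1.60 ± 0.14), AT5G38790 (-1.84 ± 0.28) and PRA1.F4 (-1.5 ± 0.36). PRA1.F4 shares 95.8% of its 31-base words with AT3G13700 and overlaps it, so its value is uncertain. Its call was lost without hy5 Control 2, hy5 BA 1 or hy5 BA 2, and that of AT5G38790 without hy5 Control 1 or hy5 Control 2.

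The counts of calls in all gene lists below stand beside 3.11% higher and 8.01% lower among all genes tested. In the highest of the 5 groups by mean level, 16.5% were lower. Among the cytokinin receptors and phosphotransfer proteins, 2 of 9 rose and 1 fell, with a median of -0.07. AHK4, the receptor also called CRE1 that is needed for normal root vasculature, was at 83.9 and 80.3 CPM in hy5 BA against 49.8 and 49.4 CPM in hy5 Control (0.73 ± 0.07, adjusted p = 3.29e-06). Both groups were tight. AHK2, another receptor, was at 23.0 and 26.2 CPM in hy5 BA against 31.1 and 33.3 CPM in hy5 Control (-0.39 ± 0.09, adjusted p = 0.0119). AHP1, a phosphotransfer protein, differed by 0.30 ± 0.08 (adjusted p = 0.0176). AHK2 lost its call without hy5 Control 2 or hy5 BA 1, and AHP1 without hy5 Control 1, hy5 BA 1 or hy5 BA 2. The third receptor AHK3 (-0.19 ± 0.07, adjusted p = 0.111) and the phosphotransfer genes AHP2 to AHP6 (-0.27 to 0.11) did not pass the test.

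Of 6 type-B response regulators, which activate transcription of the target genes, 1 rose and 0 fell (1 fell without WT Control 2 or WT BA 1), with a median of -0.02. ARR12 was at 53.9 and 51.4 CPM in hy5 BA against 37.7 and 37.8 CPM in hy5 Control (0.48 ± 0.07, adjusted p = 0.000211). ARR1 (-0.20 ± 0.07, adjusted p = 0.0578) and ARR10 (0.23 ± 0.07, adjusted p = 0.0551), which act with ARR12 in roots, lay just short of the threshold on opposite sides of 0. ARR11, ARR14 and ARR18 differed by -0.21 to 0.10.

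The type-A response regulators, the negative feedback branch, rose as a family. Of 10 members, 9 were called higher and 0 lower, with a median log2 fold change of 1.60 beside 0.02 over all genes, and the count was 9 with any 1 library left out. ARR5 was at 143 and 131 CPM in hy5 BA against 18.2 and 21.1 CPM in hy5 Control (2.81 ± 0.08, adjusted p = 9.47e-12). ARR7 was at 135 and 111 CPM in hy5 BA against 16.6 and 21.2 CPM in hy5 Control (2.7 ± 0.12, adjusted p = 8.69e-08). ARR6, which overlaps AT5G62910, was at 47.1 and 40.2 CPM in hy5 BA against 6.67 and 7.85 CPM in hy5 Control (2.59 ± 0.10, adjusted p = 1.15e-10). These 3 rose 6.02-fold to 6.99-fold. ARR4 was at 123 and 115 CPM in hy5 BA against 31.3 and 33.9 CPM in hy5 Control (1.87 ± 0.07, adjusted p = 1.15e-10). ARR17 (1.82 ± 0.21), ARR9 (1.38 ± 0.09), ARR3 (0.78 ± 0.10), ARR16 (0.67 ± 0.13) and ARR8 (0.60 ± 0.07) rose less, so the family spans a wide range of responses. ARR15 was at 5.44 and 4.14 CPM in hy5 BA against 3.8 and 2.79 CPM in hy5 Control (0.54 ± 0.19, adjusted p = 0.0929) and did not pass the test.

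Of 9 tested genes for cytokinin oxidases, which degrade cytokinins, and cytokinin glucosyltransferases, which conjugate them, 4 rose and 0 fell (median 0.28), and the count was 4 with any 1 library left out. CKX6 was at 97.3 and 90.7 CPM in hy5 BA against 28.4 and 37.2 CPM in hy5 Control (1.52 ± 0.14, adjusted p = 0.000128). CKX5 was at 36.0 and 37.1 CPM in hy5 BA against 13.6 and 14.4 CPM in hy5 Control (1.38 ± 0.08, adjusted p = 4.63e-08). CKX3, at lower counts, was at 2.96 and 2.84 CPM in hy5 BA against 1.25 and 0.807 CPM in hy5 Control (1.49 ± 0.22, adjusted p = 0.000255). All 3 oxidase genes rose more than 2-fold, and CKX5 and CKX6 overlap other annotated loci. UGT85A1, a zeatin O-glucosyltransferase gene, differed by 0.98 ± 0.11 (adjusted p = 3.11e-05). CKX1, CKX4, CKX7, UGT76C1 and UGT76C2 lay between -0.07 and 0.28, and CKX2 had at most 6 estimated counts in a library and was not tested.

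Genes of cytokinin synthesis and activation moved in both directions. Of 14 tested, 2 rose and 5 fell, with a median of -0.30 (3 fell without hy5 Control 2 and 3 without hy5 BA 2). CYP735A2, which hydroxylates the side chain to make trans-zeatin forms, was at 73.3 and 69.3 CPM in hy5 BA against 17.6 and 22.3 CPM in hy5 Control (1.84 ± 0.10, adjusted p = 6.16e-08). LOG2, of the enzymes that release active cytokinin bases from nucleotides, was at 10.1 and 9.27 CPM in hy5 BA against 3.46 and 3.38 CPM in hy5 Control (1.5 ± 0.16, adjusted p = 2.01e-05). LOG1 was at 35.6 and 28.4 CPM in hy5 BA against 50.5 and 56.9 CPM in hy5 Control (-0.75 ± 0.10, adjusted p = 0.000143). So LOG2 and LOG1 moved in opposite directions. The isopentenyltransferases IPT3 (-0.79 ± 0.12, adjusted p = 0.000899) and IPT5 (-0.73 ± 0.12, adjusted p = 0.000523), which start cytokinin synthesis, fell. LOG5 (-0.50 ± 0.14) and LOG7 (-0.31 ± 0.09) fell as well, but LOG5 lost its call without hy5 Control 2, hy5 BA 1 or hy5 BA 2, and LOG7 without hy5 Control 1, hy5 Control 2 or hy5 BA 2.

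Of 6 cytokinin response factors, AP2/ERF factors that act beside the type-B regulators, with a median of 0.18, CRF6 rose (0.66 ± 0.12, adjusted p = 0.00146) and CRF2 fell (-0.32 ± 0.08, adjusted p = 0.0144). CRF2 lost its call without hy5 Control 1, hy5 BA 1 or hy5 BA 2. CC-type glutaredoxins are small redox proteins, several of them known targets of nitrate and cytokinin signalling. Of 12 tested, 5 rose and 0 fell, with a median of 0.56. Fewer rose without any 1 of the hy5 libraries, and the lower count changed without WT Control 1 or WT Control 2. AT4G15660 was at 3.18 and 2.35 CPM in hy5 BA against 0.490 and 0.528 CPM in hy5 Control (2.44 ± 0.28, adjusted p = 3.06e-05). AT4G15670 was at 4.76 and 4.36 CPM in hy5 BA against 1.35 and 1.3 CPM in hy5 Control (1.78 ± 0.19, adjusted p = 1.51e-05). AT2G30540 was at 16.9 and 13.8 CPM in hy5 BA against 3.76 and 5.37 CPM in hy5 Control (1.75 ± 0.16, adjusted p = 1.44e-05). AT4G15680 (0.92 ± 0.14) and AT4G15690 (0.71 ± 0.21) are neighbours of AT4G15660 and AT4G15670 by locus number, and 8.90% of the 31-base words of AT4G15660 occur in other genes, so reads may be shared within this cluster. In the 5 genes that rose the hy5 groups did not overlap, as in all called genes, which adds nothing to the calls.

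**Figure D3:**
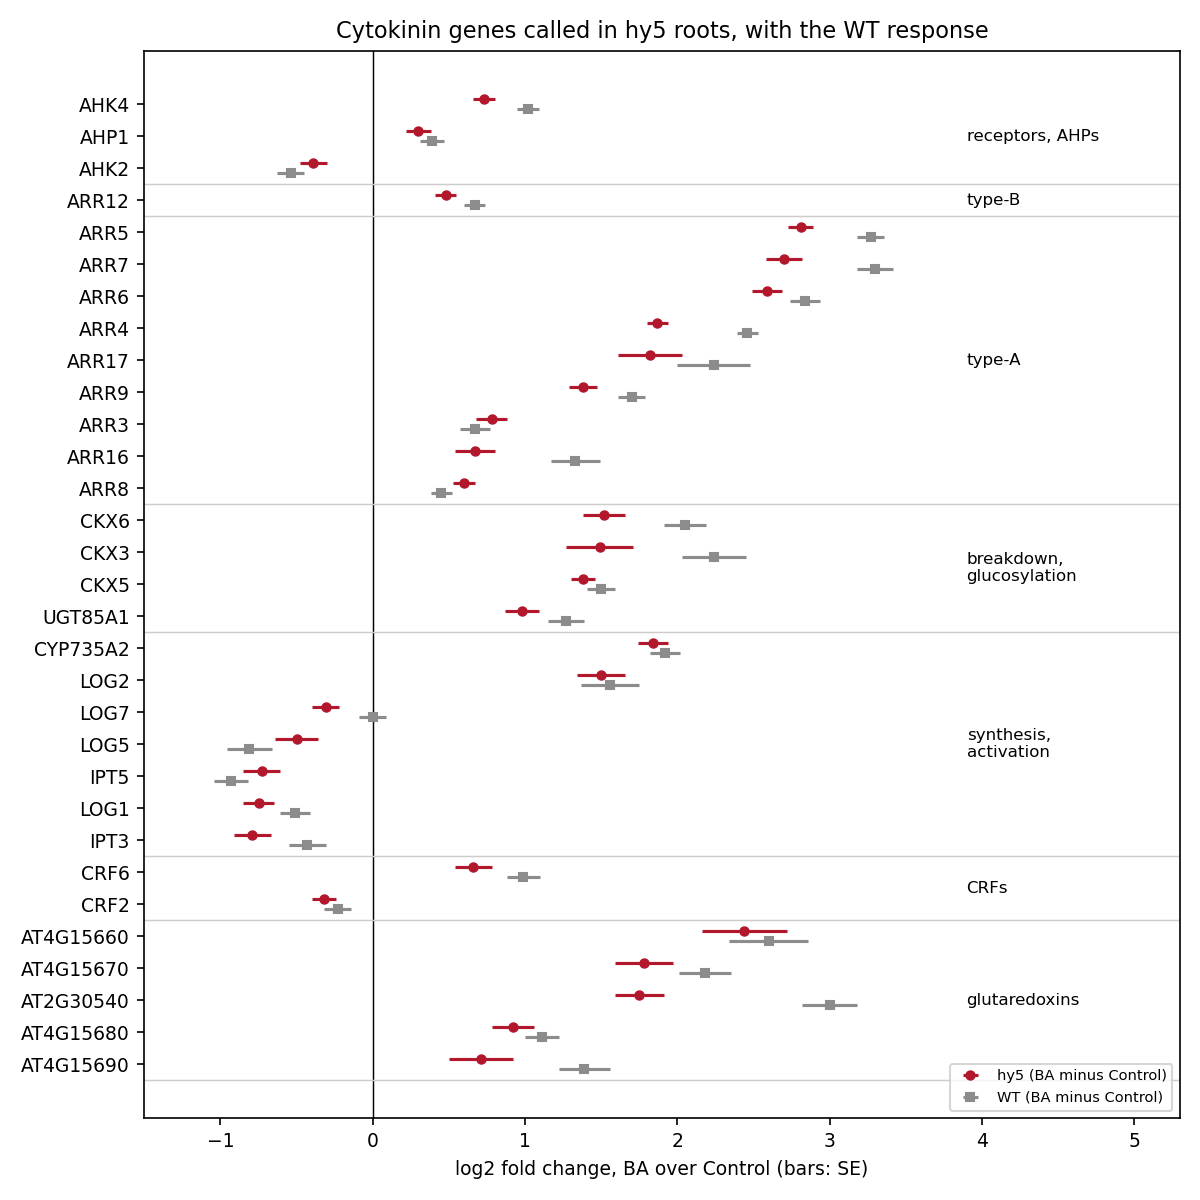
Log2 fold change, BA over Control, with its SE in hy5 (circles) and in WT (squares) for the cytokinin genes and glutaredoxins called in hy5, grouped by role. The 9 type-A regulators, the oxidases and the glutaredoxins lie to the right of 0 in both genotypes, with ARR5 at 2.81 in hy5, and IPT3, IPT5, LOG1, LOG5 and AHK2 lie to the left in both.

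Wild-type roots, which share no library with the hy5 comparison, were treated in the same way. In WT, 879 genes were higher (3.88%) and 982 lower (4.33%). Over all genes tested, the fold changes in hy5 and WT had the same sign for 62.3%. Of the 706 genes higher in hy5, 87.4% had a positive fold change in WT and 347 (49.2%) were called higher there, while 1 was called lower. Of the 1817 genes lower in hy5, 86.1% had a negative fold change in WT and 540 (29.7%) were called lower there, while 5 were called higher. The median WT fold changes of these sets were 0.38 and -0.21, beside 0.52 and -0.43 in hy5, but the sets were chosen on the hy5 values, which favours larger values in hy5.

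A direct test of the difference between the responses, the genotype by treatment interaction, called 110 genes (0.485%), of which 11 (0.0485%) had a more positive and 99 (0.436%) a more negative response in hy5. Without an adjustment 3112 genes had p below 0.05. ARR4 rose less in hy5 (1.87) than in WT (2.46), and the difference was -0.59 ± 0.10 (adjusted p = 0.0211). The glutaredoxin AT2G30540 differed by -1.25 ± 0.25 (adjusted p = 0.0492), with 1.75 in hy5 and 3.0 in WT. ARR5 (-0.47 ± 0.12, adjusted p = 0.0911) and ARR7 (-0.60 ± 0.16, adjusted p = 0.138) did not pass this test, nor did AT1G19040 (0.05 ± 0.24, adjusted p = 0.947). The number of interaction calls fell to between 6 and 23 without WT BA 1 (14), WT BA 2 (17), hy5 Control 1 (7), hy5 Control 2 (23) or hy5 BA 2 (6), and reached 331 without WT Control 1 and 271 without hy5 BA 1.

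Auxin genes gave a mixed picture with lateral root genes on the lower side. Of 25 Aux/IAA repressors, 5 rose and 1 fell (3 rose without any 1 of the 4 hy5 libraries, and 2 fell without WT Control 2 or WT BA 1), with a median of 0.09. IAA5 was at 5.69 and 5.62 CPM in hy5 BA against 2.42 and 2.17 CPM in hy5 Control (1.3 ± 0.17, adjusted p = 9.43e-05), IAA3, known as SHY2 and a mediator of cytokinin action in the root meristem, differed by 0.64 ± 0.09 (adjusted p = 0.000236), and both overlap another locus. IAA2 was at 161 and 143 CPM in hy5 BA against 297 and 292 CPM in hy5 Control (-0.96 ± 0.07, adjusted p = 7.21e-07). GH3.2, which conjugates auxin to amino acids, fell by 1.00 on the log2 scale (SE 0.13, adjusted p = 0.000552). Of 9 auxin-conjugating and auxin-oxidising enzymes, with a median of 0.00, 1 rose (0 without hy5 Control 2) and 2 fell (1 without hy5 Control 1, hy5 Control 2 or hy5 BA 1). Of 17 auxin carriers and their kinases, with a median of -0.04, 0 rose and 4 fell (2 without hy5 Control 1, hy5 Control 2 or hy5 BA 2). WAG1 was at 2.37 and 2.1 CPM in hy5 BA against 7.53 and 6.43 CPM in hy5 Control, and the efflux carrier PIN3 differed by -0.44 ± 0.07 (adjusted p = 0.000308).

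Of 11 lateral root initiation genes, 4 fell and 0 rose, none of the 11 had a fold change above 0, and their median was -0.31. LBD29, a target of auxin response factors in lateral root founder cells, was at 4.09 and 4.02 CPM in hy5 BA against 8.48 and 9.78 CPM in hy5 Control (-1.17 ± 0.13, adjusted p = 1.46e-05). LBD16, which acts with it, was at 4.51 and 5.28 CPM in hy5 BA against 10.1 and 9.19 CPM in hy5 Control (-0.98 ± 0.13, adjusted p = 0.00013). LRP1 (LATERAL ROOT PRIMORDIUM 1) differed by -0.64 ± 0.11 (adjusted p = 0.000736). In these 3 the groups did not overlap, as in all called genes. The number of called members in the list depended on which library was left out. In bulk roots fewer cells of a type and less RNA per cell cannot be told apart.

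Ethylene genes moved in both directions. Of 13 ACC synthases and ACC oxidases, which make the ethylene precursor and ethylene, 3 rose and 2 fell, with a median of -0.22 (0 fell without hy5 Control 1, hy5 Control 2 or hy5 BA 2, and 1 fell without hy5 BA 1). ACS5, a known cytokinin-responsive synthase, was at 16.6 and 13.6 CPM in hy5 BA against 7.5 and 6.36 CPM in hy5 Control (1.12 ± 0.12, adjusted p = 1.54e-05). ACS2 was at 48.4 and 48.3 CPM in hy5 BA against 29.1 and 29.2 CPM in hy5 Control (0.73 ± 0.09, adjusted p = 9.80e-05). ACS9 was at 0.986 and 0.865 CPM in hy5 BA against 0.398 and 0.373 CPM in hy5 Control (1.26 ± 0.32, adjusted p = 0.0167). Its call was lost without any 1 of the hy5 libraries. The ACS5 response was smaller in hy5 than in WT (2.27), and the difference was -1.15 ± 0.20 (adjusted p = 0.0211). Of 13 ethylene receptors and signalling genes, 5 fell and 1 rose, with a median of -0.24 (3 fell without hy5 Control 2, hy5 BA 1 or hy5 BA 2, and 0 rose without hy5 Control 1, hy5 Control 2 or hy5 BA 2). The transcription factors EIL1 (-0.68 ± 0.07, adjusted p = 1.05e-05) and ERF1 (-0.64 ± 0.11, adjusted p = 0.00091) and the receptor ERS1 (-0.45 ± 0.08, adjusted p = 0.00121) fell.

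Of 15 gibberellin oxidase and receptor genes, 2 rose and 6 fell, with a median of 0.08 (1 rose without any 1 of the 4 hy5 libraries). GA20OX2, a synthesis enzyme, was at 1.89 and 2.29 CPM in hy5 BA against 0.704 and 0.869 CPM in hy5 Control (1.4 ± 0.23, adjusted p = 0.000732). GA2OX6, an inactivating oxidase, was at 202 and 173 CPM in hy5 BA against 267 and 273 CPM in hy5 Control (-0.53 ± 0.08, adjusted p = 0.000461). The receptor GID1B fell too (-0.61 ± 0.07, adjusted p = 4.44e-05). Of 11 brassinosteroid genes, 2 rose and 2 fell, with a median of 0.04 (1 fell without hy5 Control 1). The synthesis enzymes DWF4 (0.60 ± 0.08, adjusted p = 0.000133) and BR6OX1 (0.88 ± 0.13, adjusted p = 0.000316) rose, and the signalling kinase BIN2 (-0.51 ± 0.07, adjusted p = 0.000126) fell.

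Jasmonate, touch and hypoxia genes had more lower than higher calls, as did all genes tested (8.01% lower and 3.11% higher). Of 27 jasmonate synthesis and JAZ repressor genes, 9 fell and 1 rose (3 fell without hy5 Control 2 and 2 without hy5 BA 2), with a median of -0.20. JAZ3, a repressor of jasmonate signalling, was at 82.2 and 80.5 CPM in hy5 BA against 122 and 127 CPM in hy5 Control (-0.62 ± 0.08, adjusted p = 6.95e-05). AOC2, an enzyme of jasmonate synthesis, went the other way, at 35.9 and 26.8 CPM in hy5 BA against 11.5 and 12.1 CPM in hy5 Control (1.41 ± 0.12, adjusted p = 4.70e-06). Of 21 touch and early stress genes, 9 fell and 3 rose, with a median of -0.21 (4 fell without hy5 Control 2 and 3 without hy5 BA 2). TCH3, a calmodulin-like touch gene that overlaps other loci (-0.59 ± 0.09, adjusted p = 0.000362), and CZF1, a zinc finger gene (-0.50 ± 0.09, adjusted p = 0.00101), fell. CBF1, a cold-response factor, was at 12.5 and 13.3 CPM in hy5 BA against 5.78 and 6.80 CPM in hy5 Control (1.04 ± 0.13, adjusted p = 7.62e-05). Of 14 hypoxia and fermentation genes, 7 fell and 1 rose, with a median of -0.31 (4 fell without hy5 Control 2 and 3 without hy5 BA 2, and 0 rose without hy5 Control 1, hy5 Control 2 or hy5 BA 2). HRE2, a factor induced by low oxygen, differed by -0.87 ± 0.12 (adjusted p = 0.00035), HRE1 by -0.54 ± 0.09 (adjusted p = 0.000953) and the pyruvate decarboxylase PDC2 by -0.56 ± 0.07 (adjusted p = 6.24e-05). Without hy5 Control 1 and hy5 BA 2 together, 1 jasmonate gene, 0 touch genes and 3 hypoxia genes were lower.

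Of 27 abscisic acid and drought genes, 5 fell and 2 rose, with a median of -0.00 (1 fell if hy5 Control 2 or hy5 BA 2 was left out, 3 if hy5 Control 1 was, and 1 rose if any of these was). RD29A, a drought and cold marker, was at 803 and 689 CPM in hy5 BA against 1150 and 1160 CPM in hy5 Control (-0.63 ± 0.09, adjusted p = 0.000183), and NCED3, a synthesis enzyme of abscisic acid, rose (0.58 ± 0.10, adjusted p = 0.000752). Of 12 heat shock chaperones 1 fell, HSP90.1 (-0.37 ± 0.10, adjusted p = 0.0196), and it lost its call without any 1 of the hy5 libraries. The list had a median of -0.18, and 2 or 3 members fell without WT Control 1 or WT Control 2.

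Among nutrient genes, those of phosphate uptake and starvation were on the lower side. Of 19 tested, 7 fell and 0 rose (11 fell if WT BA 1 was left out, 3 if hy5 Control 1 was and 4 if hy5 BA 2 was), and 2 of the 19 fold changes were above 0, with a median of -0.35. PHT1;1, the main root phosphate transporter, was at 99.0 and 103 CPM in hy5 BA against 136 and 137 CPM in hy5 Control (-0.44 ± 0.07, adjusted p = 0.000748), and 49.9% of its 31-base words occur in other genes, mostly AT5G43370. PHT1;3 was at 0.958 and 0.525 CPM in hy5 BA against 2.05 and 2.24 CPM in hy5 Control (-1.51 ± 0.26, adjusted p = 0.000936). Of 25 nitrate genes, with a median of -0.04, 4 fell (2 without hy5 Control 2) and 1 rose (0 without hy5 Control 1 or hy5 BA 2). NRT2.6 was at 35.7 and 33.0 CPM in hy5 BA against 70.3 and 82.5 CPM in hy5 Control (-1.15 ± 0.08, adjusted p = 4.07e-07). NRT1.8, which removes nitrate from xylem sap, was at 61.9 and 48.9 CPM in hy5 BA against 121 and 135 CPM in hy5 Control (-1.20 ± 0.14, adjusted p = 0.000947). Both transporter genes fell more than 2-fold. Of 21 sulfate genes, with a median of -0.14, 5 fell (1 if either hy5 Control library was left out, 0 if hy5 BA 2 was) and 1 rose, SULTR3;5 (0.38 ± 0.07, adjusted p = 0.00242). Of 24 iron genes, with a median of 0.09, 0 fell (1 without WT BA 1 or WT BA 2) and 1 rose, the transporter IRT2, at 25.5 and 24.1 CPM in hy5 BA against 11.6 and 13.5 CPM in hy5 Control (0.99 ± 0.10, adjusted p = 1.11e-05). Of 22 aquaporins, with a median of -0.08, 0 rose and 1 fell, PIP2;3 (-0.32 ± 0.07), which lost its call without hy5 Control 2 or hy5 BA 2. Of its 31-base words, 26.8% occur in other genes, mostly AT2G37170, so its value is uncertain.

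**Figure D4:**
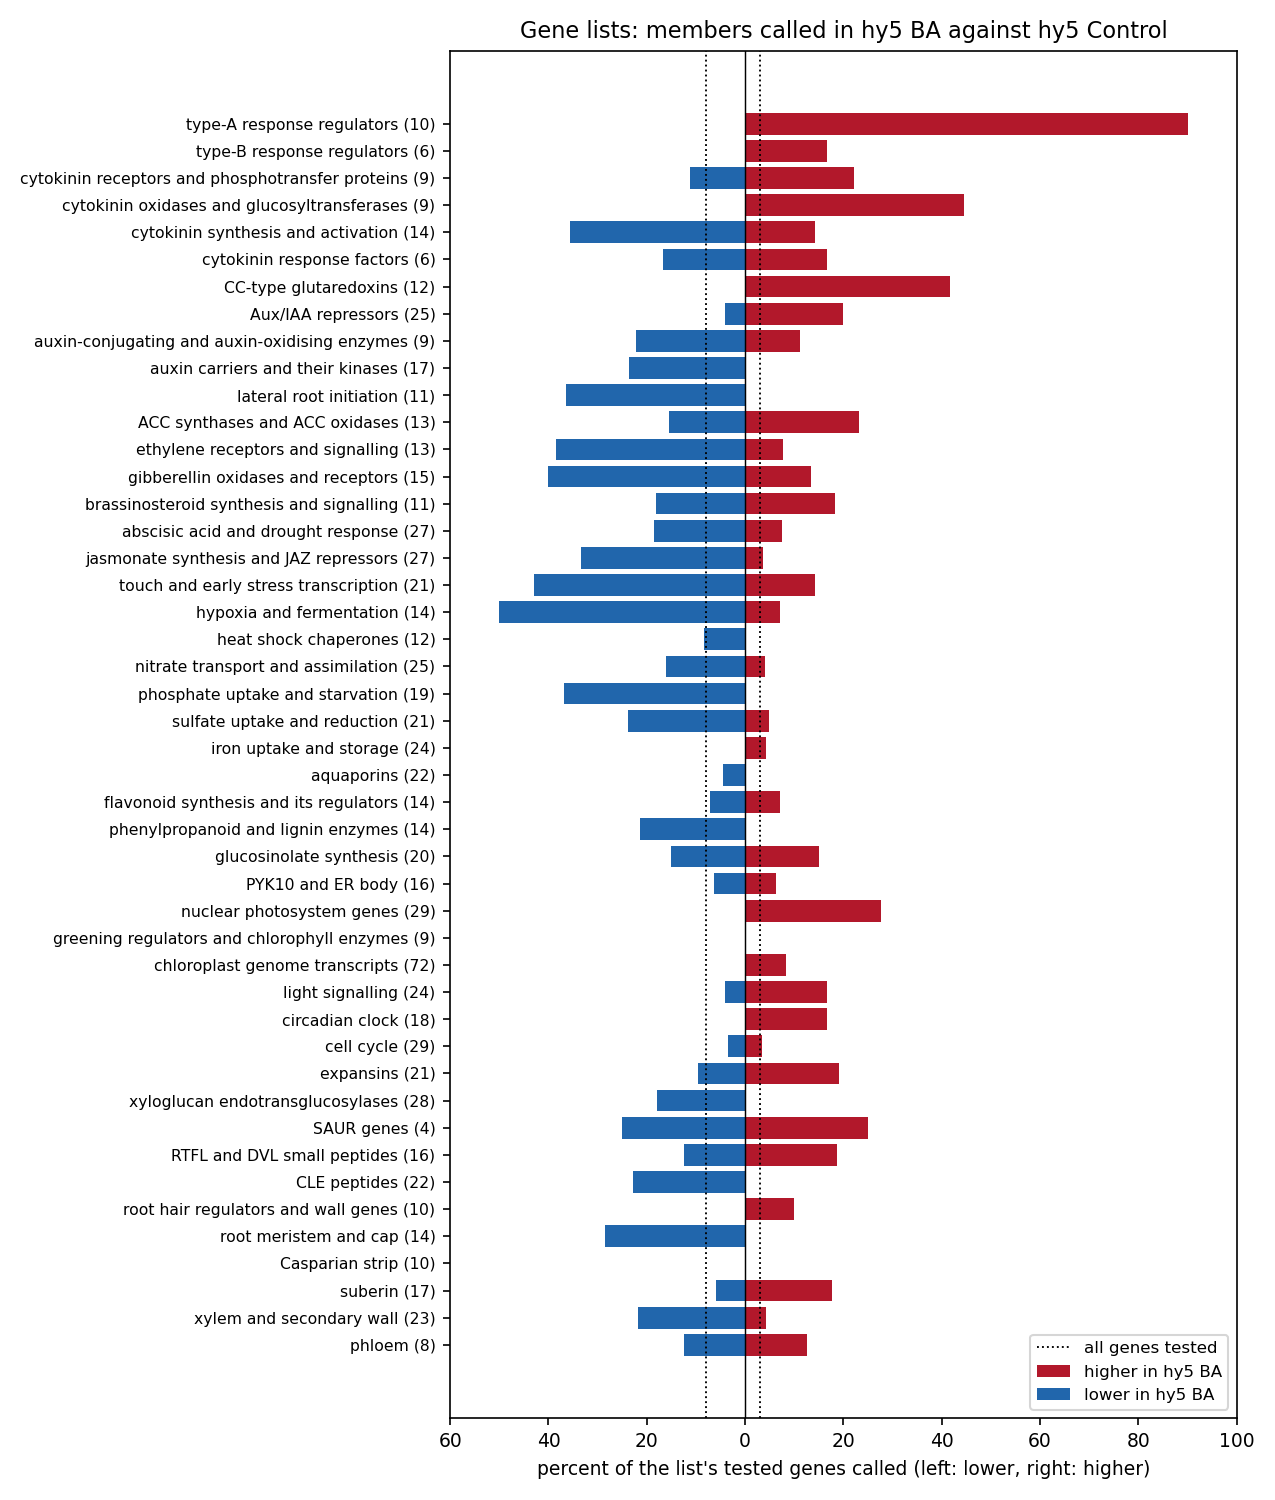
Percent of the tested members of each gene list called lower (left) and higher (right) in hy5 BA against hy5 Control, with the number tested in brackets and the shares of all genes tested (8.01% lower and 3.11% higher) as dotted lines. The type-A response regulators reach 9 of 10 on the right, and hypoxia genes reach 7 of 14 on the left. The 1 lower call among the SAUR genes is AT5G01830, annotated as an ARM repeat protein.

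Photosystem genes encoded in the nucleus had positive fold changes, and their calls depended on which library was used. Of 29 tested, 8 rose and 0 fell, and all 29 fold changes were above 0 with a median of 0.67. Their summed level was 141 and 143 CPM in hy5 BA, against 89.7 and 117 CPM in hy5 Control, where hy5 Control 1 was lowest. With 1 library left out the higher count was 0 (hy5 Control 1), 1 (hy5 BA 1 or hy5 BA 2), 13 (either WT Control library) or 14 (hy5 Control 2). In WT 0 members were called, and the sums were 511 and 459 CPM in WT BA against 413 and 473 CPM in WT Control. PSBO1 was at 9.67 and 9.80 CPM in hy5 BA against 6.52 and 7.76 CPM in hy5 Control (0.45 ± 0.11, adjusted p = 0.0134), and PSBR, which overlaps AT1G79050, differed by 0.40 ± 0.09 (adjusted p = 0.00671). DRT112, annotated as a cupredoxin, was at 2.56 and 2.35 CPM in hy5 BA against 0.214 and 0.807 CPM in hy5 Control (2.27 ± 0.36, adjusted p = 0.0021). PSAH-1, of photosystem I, was at 0.930 and 0.989 CPM in hy5 BA against 0.0306 and 0.373 CPM in hy5 Control (2.24 ± 0.50, adjusted p = 0.0108) and lost its call without hy5 Control 1, hy5 BA 1 or hy5 BA 2.

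The shoot marker list followed the same libraries. Its 7 tested members of 9 had fold changes above 0 with a median of 1.15, of which 0 were called (3 without hy5 Control 2 and 1 without hy5 Control 1). Their sum was 24.5 and 29.1 CPM in hy5 BA against 8.63 and 20 CPM in hy5 Control, while the WT BA libraries had 55.7 and 43.5 CPM and the WT Control libraries 45.0 and 53.5 CPM. The defining shoot meristem markers STM and WUS had at most 7 and 2 estimated counts in a library and were not tested. Apart from GL1, the tested members were genes of photosynthesis (RBCS1A, RBCS2B, RBCS3B, CA1, CAB2 and LHB1B1). So this list and the photosystem genes are not separate readouts. RBCS2B and RBCS3B were at 0 CPM in hy5 Control 1 and at 0.776 and 2.14 CPM in hy5 Control 2. The part of shoot tissue in the photosystem values was not tested.

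Of 72 tested chloroplast genome transcripts, 6 rose and 0 fell (2 rose if hy5 Control 2 or hy5 BA 2 was left out, 3 if hy5 Control 1 was), with a median of 0.35 in hy5 and of -0.43 in WT, where 0 rose and 5 fell. ATCG00490 was at 9.53 and 9.05 CPM in hy5 BA against 5.05 and 5.49 CPM in hy5 Control (0.82 ± 0.11, adjusted p = 0.000111). ATCG00020 was at 5.75 and 4.63 CPM in hy5 BA against 3.18 and 2.3 CPM in hy5 Control (0.92 ± 0.16, adjusted p = 0.000889). The summed level of the list overlapped between the groups, at 319 and 390 CPM in hy5 BA against 267 and 347 CPM in hy5 Control. Libraries were made from oligo-dT selected RNA, which captures plastid transcripts only in part. Of 9 greening regulators and chlorophyll enzymes 0 were called (1 higher without hy5 Control 2 or hy5 BA 1), with a median of 0.24, and the GATA factor GNC had 2 and 6 estimated counts in hy5 BA and 0 in both hy5 Control libraries.

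**Figure D5:**
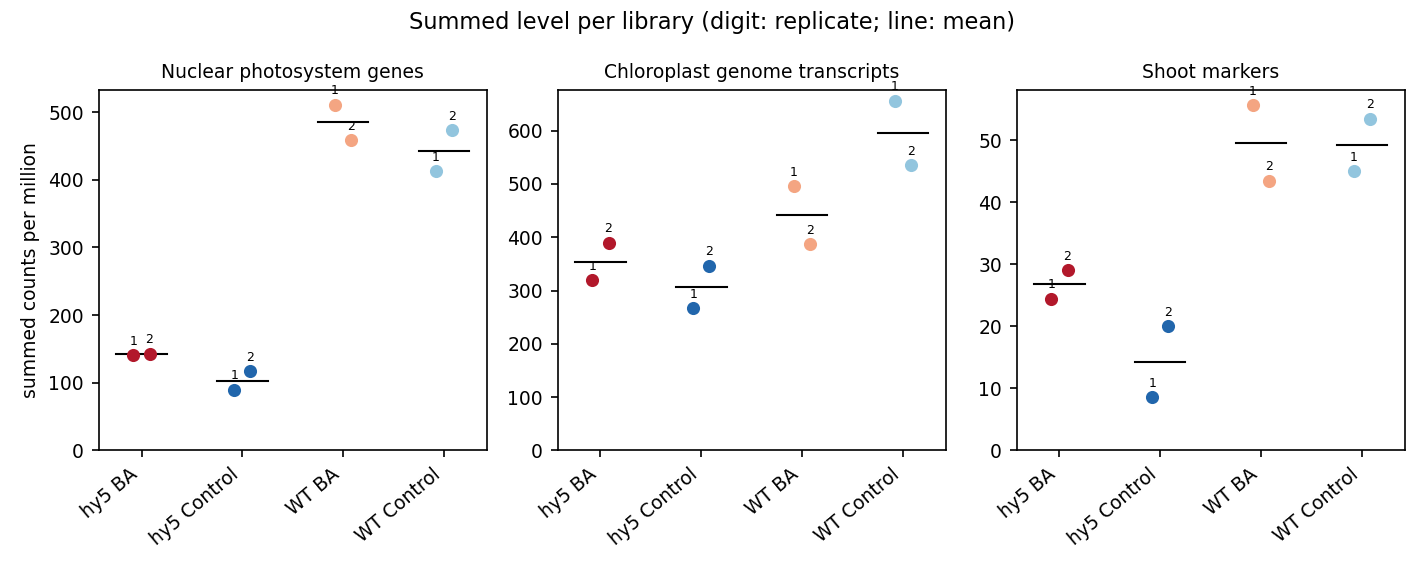
Summed CPM of 3 gene lists in each library (digits give the replicate, lines the mean of 2). For nuclear photosystem genes and shoot markers hy5 Control 1 is the lowest of the 8 libraries (89.7 and 8.63 CPM), and for the chloroplast genome the hy5 groups overlap.

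Light and clock genes that were called changed by less than 2-fold. Of 24 light signalling genes, with a median of -0.00, 4 rose and 1 fell, beside 3.11% higher and 8.01% lower among all genes. The B-box gene BBX24 differed by 0.39 ± 0.07 (adjusted p = 0.00194) and BBX19 by 0.47 ± 0.14 (adjusted p = 0.0343). The higher count was 0 without hy5 Control 1, 1 without hy5 BA 1, and 2 without hy5 Control 2 or hy5 BA 2. The lower count was 2 without any 1 of the WT libraries and 0 without hy5 Control 1, hy5 Control 2 or hy5 BA 2. Of 18 clock genes, with a median of 0.09, 3 rose and 0 fell (0 rose without hy5 Control 1 and 1 rose without hy5 BA 1), among them LUX of the evening complex (0.30 ± 0.07, adjusted p = 0.00989). Of 14 flavonoid genes, with a median of 0.06, 1 rose (0 without hy5 Control 1 or hy5 BA 1, 3 without hy5 BA 2) and 1 fell (0 without hy5 Control 1, hy5 Control 2 or hy5 BA 2, 2 without any 1 of the WT libraries). FLS1, the flavonol synthase gene, was at 1.44 and 0.803 CPM in hy5 BA against 0.306 and 0.528 CPM in hy5 Control (1.44 ± 0.33, adjusted p = 0.00954), while it was at 40.5 and 44.2 CPM in WT BA against 31.1 and 30.2 CPM in WT Control. Of 14 phenylpropanoid genes, with a median of -0.17, 0 rose and 3 fell (0 without any 1 of the hy5 libraries), led by FAH1 (-0.41 ± 0.10, adjusted p = 0.0131).

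Of 20 glucosinolate genes, with a median of -0.01, 3 rose (1 without hy5 Control 1, hy5 Control 2 or hy5 BA 2) and 3 fell, and the leading changes were in MYB regulators. MYB51, a regulator of indole glucosinolates, was at 98.1 and 86.6 CPM in hy5 BA against 157 and 159 CPM in hy5 Control (-0.77 ± 0.09, adjusted p = 6.47e-05). MYB34, which regulates the same branch, was at 61.0 and 54.5 CPM in hy5 BA against 39.6 and 43.0 CPM in hy5 Control (0.48 ± 0.08, adjusted p = 0.000918). So these related regulators moved in opposite directions, and MYB28, of the aliphatic branch, fell (-0.53 ± 0.09, adjusted p = 0.000609). Of 16 PYK10 and ER body genes, with a median of -0.13, 1 rose and 1 fell (0 fell without hy5 Control 1 or hy5 BA 2, 2 without WT Control 1 or WT Control 2). NAI1, the bHLH factor needed for ER bodies, rose by 0.43 ± 0.07 (adjusted p = 0.00077), and BGLU22 differed by -0.32 ± 0.08 (adjusted p = 0.013).

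The counts of cell wall and peptide genes stand beside 3.11% higher and 8.01% lower among all genes tested. Among cell wall genes, EXPA17, an expansin of lateral root emergence, was at 17.3 and 17.2 CPM in hy5 BA against 42.5 and 37.0 CPM in hy5 Control (-1.20 ± 0.09, adjusted p = 4.07e-07). Of 21 expansins, with a median of 0.14, 4 rose (2 without hy5 BA 1) and 2 fell, and EXPA15 was among those that rose (0.64 ± 0.09, adjusted p = 0.000134). Of 28 xyloglucan endotransglucosylases, which remodel wall xyloglucan, with a median of -0.11, 5 fell (3 without hy5 Control 1 and 2 without hy5 BA 2) and 0 rose (1 without hy5 Control 1, hy5 Control 2 or hy5 BA 1). XTH21 (-0.78 ± 0.09, adjusted p = 2.21e-05) and XTH16 (-0.62 ± 0.08, adjusted p = 6.95e-05) led them, and 12.5% of the 31-base words of XTH21 occur in other genes. Of 16 tested RTFL and DVL peptides, with a median of 0.05, 3 rose and 2 fell, the same counts as with any 1 library left out, with RTFL7 at one end and RTFL5 at the other. RTFL5 was at 2.62 and 2.63 CPM in hy5 BA against 10.5 and 8.20 CPM in hy5 Control (adjusted p = 1.75e-05). Of 22 tested CLE signalling peptides, with a median of -0.21, 5 fell (3 without hy5 BA 2) and 0 rose. CLE1 was at 0.817 and 0.711 CPM in hy5 BA against 3.31 and 2.39 CPM in hy5 Control (-1.89 ± 0.24, adjusted p = 6.98e-05). CLE2 fell in hy5 (-0.58 ± 0.09, adjusted p = 0.000257) and had a fold change of 0.26 in WT, a difference of -0.85 ± 0.13 (adjusted p = 0.0178). Of 4 tested genes with a SAUR symbol in RefSeq, with a median of 0.35, 1 rose (0 without hy5 Control 2, hy5 BA 1 or hy5 BA 2) and 1 fell. The gene that fell, AT5G01830 (listed there as SAUR21; -0.69 ± 0.09, adjusted p = 7.15e-05), is annotated as an ARM repeat protein. RefSeq gives the same name as a synonym of AT5G18030, so AT5G01830 is not described as a SAUR gene.

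Markers of root tissues were detected in all libraries. Their counts stand beside 3.11% higher and 8.01% lower among all genes tested. Of 10 Casparian strip genes, with a median of -0.05, 0 were called in either direction (1 higher without WT BA 1 or WT BA 2), and their sum was 873 and 813 CPM in hy5 BA against 874 and 862 CPM in hy5 Control. Of 14 meristem and root cap genes, with a median of -0.12, 4 fell (2 without hy5 Control 1) and 0 rose. SCL3 (-0.53 ± 0.08, adjusted p = 0.000223), UPB1 (-0.42 ± 0.07, adjusted p = 0.00102) and SCR (-0.38 ± 0.08, adjusted p = 0.0044), all transcription factors of root growth or ground tissue, were among them, and SCR lost its call without hy5 Control 1. Of 23 tested xylem genes, with a median of -0.21, 1 rose and 5 fell (8 fell if WT Control 2 was left out, 0 if hy5 BA 2 was and 1 if any other hy5 library was). VND6, the master factor of metaxylem vessels, was at 10.9 and 10.2 CPM in hy5 BA against 5.11 and 5.56 CPM in hy5 Control (0.98 ± 0.12, adjusted p = 5.15e-05), whereas the laccase LAC17 (-0.47 ± 0.10, adjusted p = 0.00473) and the cellulose synthase CESA4 (-0.39 ± 0.09, adjusted p = 0.0128) fell. VND6, LAC17 and CESA4 each overlap another annotated locus. Of 10 root hair genes, with a median of -0.03, 0 fell and 1 rose, RSL2 (0.71 ± 0.15, adjusted p = 0.00549; the count was 0 without hy5 Control 2 or hy5 BA 1 and 2 without WT Control 1 or WT Control 2).

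Of 17 suberin genes, with a median of 0.16, 3 rose (0 without hy5 Control 2 or hy5 BA 2) and 1 fell (0 without hy5 Control 1 or hy5 BA 2, 2 without hy5 BA 1), led by KCS2 (0.42 ± 0.09, adjusted p = 0.00429), a fatty acid elongase gene. Of 8 phloem genes, with a median of -0.04, CVP2 rose (0.45 ± 0.10, adjusted p = 0.00496; not called without hy5 Control 1 or hy5 BA 2) and APL, the phloem identity factor, fell (-0.32 ± 0.08, adjusted p = 0.012; not called without any 1 of the hy5 libraries). Of 29 cell cycle genes, with a median of 0.06, the inhibitor SMR1 rose (0.66 ± 0.16, adjusted p = 0.0132; not called without hy5 Control 2 or hy5 BA 1) and the inhibitor KRP6 fell (-0.32 ± 0.08, adjusted p = 0.0104; not called without any 1 of the hy5 libraries). Scaled by library size alone, every list with a median between -0.08 and 0.00 has a median at or above 0, so those medians give no direction.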

How the data were processed

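The authors deposited, per library, a table with an estimated count and a TPM value for each transcript. The submitters' processing notes name Salmon and the TAIR10 genome build, with the Salmon version and strand setting not given in the sources used here. The deposited TPM values were not used. Estimated counts of 48332 transcripts were added up to 27628 genes and rounded to whole numbers, of which 27420 were found in the RefSeq annotation of TAIR10.1. Library totals were 29928501 to 35289411 estimated counts.

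Genes were kept by edgeR's filterByExpr (edgeR 4.0.16, R 4.3.3) with a minimum count of 10, scaled by TMM and tested over all 8 libraries with the quasi-likelihood F test (4 residual degrees of freedom). Common dispersion corresponded to a biological coefficient of variation of 0.0596. Contrasts were hy5 BA against hy5 Control, the same for WT, and their difference. P-values were Benjamini-Hochberg adjusted over 22682 genes. Alternatives were RLE and library-size scaling, no filter, the 4 hy5 libraries alone, a replicate block, DESeq2 1.42.0, a threshold of 0.01, and leaving out libraries. Per-gene chi-square values between replicates averaged 3.80 to 7.79, so no library pair was a duplicate.

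On simulated counts for 22682 genes the hy5 test found 80.6%, 95.5% and 100.0% of 67, 67 and 66 genes changed 1.5-fold, 2-fold and 4-fold, with 13 false calls. The changed genes were drawn from those above a minimum average level, and the counts followed the fitted model with its spread. These shares may therefore not hold for genes at low counts or for the real libraries. Tables were made with Python 3.11.15, pandas 2.3.3 and scipy 1.17.1, and figures with matplotlib 3.10.9. The 47 gene lists (894 members, 893 in the tables) and the comparison were chosen with earlier results of these data known. Named genes are the 12 largest called changes in each direction among genes without overlap of the groups and with an average log2 CPM no lower than 1, HY5 and HYH, up to 3 called genes of each list, and the 5 leading interaction genes. All other members of the short cytokinin lists, and other members given as values, were named after their values were seen. Without strand, reads of overlapping genes cannot be told apart.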

Additional observations from a re-analysis of the deposited data

Results flagged for a closer look

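The genes below were singled out because the BA response in hy5 differed from that in WT in the test of the difference itself (edgeR, adjusted p below 0.05). Each value is the log2 fold change in hy5 less that in WT. ARR4 was at -0.59, AT2G30540 at -1.25, ACS5 at -1.15 and CLE2 at -0.85, as described above.

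In 2 genes a response of WT roots was small or not called in hy5 roots. AT3G28600, annotated as a P-loop nucleoside triphosphate hydrolase, was at 77.5 and 67.7 CPM in hy5 BA against 70.3 and 65.7 CPM in hy5 Control, and at 57.8 and 50.1 CPM in WT BA against 23.7 and 25.1 CPM in WT Control (-1.05 ± 0.12, adjusted p = 0.00311). AT4G22620, a SAUR-like gene, was at 24.7 and 20.7 CPM in hy5 BA against 20.8 and 18.3 CPM in hy5 Control, and at 20.4 and 21.9 CPM in WT BA against 8.08 and 8.41 CPM in WT Control (-1.14 ± 0.14, adjusted p = 0.00516). In both, WT Control was lowest. In AT4G22620 the 2 hy5 groups and WT BA were close together, and in AT3G28600 WT BA lay between WT Control and the hy5 groups.

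AT5G35940, a mannose-binding lectin gene, fell in hy5, at 57.6 and 52.1 CPM in hy5 BA against 89.8 and 90.0 CPM in hy5 Control, and was at 43.9 and 37.3 CPM in WT BA against 38.0 and 39.1 CPM in WT Control (-0.79 ± 0.11, adjusted p = 0.0145). AT3G55720, annotated as a putative replication factor C subunit, was at 31 and 24.8 CPM in hy5 BA against 37.9 and 35.7 CPM in hy5 Control, and at 29.2 and 27.8 CPM in WT BA against 19.7 and 19.9 CPM in WT Control (-0.92 ± 0.13, adjusted p = 0.0145). PDC2 differed by -0.48 ± 0.10 (adjusted p = 0.0463), with -0.56 in hy5 and -0.08 in WT. NAI1 differed by -0.53 ± 0.10 (adjusted p = 0.0373), with 0.43 in hy5 and 0.96 in WT.

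Of the 72 tested chloroplast genome transcripts, 3 passed this test, and they went the other way. ATCG00490 differed by 0.95 ± 0.14 (adjusted p = 0.0145), ATCG00020 by 0.98 ± 0.18 (adjusted p = 0.0335) and ATCG00680 by 1.17 ± 0.22 (adjusted p = 0.0352), and ATCG00680 lost its hy5 call without hy5 Control 2, hy5 BA 1 or hy5 BA 2. AT5G36670 had a fitted difference of -8.69, which is no bound, because it was at 0 CPM in both WT Control libraries while it was at 2.24 and 3.2 CPM in WT BA. It shares 98.8% of its 31-base words with AT5G36740, so its counts are uncertain.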

How the results depend on the processing

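The 2523 hy5 calls (706 higher, 1817 lower) were 585 (167 and 418) with hy5 Control 1 and hy5 BA 2 both left out (the spread then comes from WT alone), 1353 (310 and 1043) at an adjusted p under 0.01, 2082 (415 and 1667) with DESeq2, 2997 (1712 and 1285) with library-size scaling, 3552 (1157 and 2395) from the 4 hy5 libraries alone and 2501 (610 and 1891) with RLE scaling. With 1 library left out they ranged from 1088 to 2867 (281 to 846 higher, 772 to 2126 lower). The 1861 WT calls (879 higher, 982 lower) ranged from 841 to 2220 (513 to 945 higher, 320 to 1275 lower). The 110 interaction calls (11 more positive, 99 more negative) were 75 (6 and 69) with RLE, 55 (22 and 33) with library size, 162 (21 and 141) without the filter, 294 (22 and 272) with DESeq2, 6 (3 and 3) without the 2 libraries together, and 6 to 331 (0 to 36, and 4 to 309) with 1 library left out. The cause of these differences was not tested, apart from the fewer samples.

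Samples with the same replicate number did not deviate together (correlations of -0.07 to 0.02), so the numbers pair nothing. A fit with the replicate block gave 2281 hy5 calls (600 and 1681), 1635 WT calls (767 and 868) and 101 interaction calls (10 and 91). Of the 145 named genes, 137 were called in hy5, and 89 kept the call with every library left out in turn. The value of AT3G28600 in hy5 was -0.03 without hy5 BA 1 (adjusted p = 0.925) and 0.19 without hy5 BA 2 (adjusted p = 0.358). The interaction rests on 2 libraries in each of 4 groups, and its calls moved most.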

Other observations

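Protein families were also counted by their annotated product, 182 families with at least 15 tested members. They were picked after their values were seen and were not tested. Of 123 genes for cysteine/histidine-rich C1 domain proteins, 44 fell and 1 rose in hy5 BA against hy5 Control (35.8% lower, beside 8.01% of all genes tested), with a median log2 fold change of -0.24, and 28 to 44 fell with 1 library left out. In WT 31 of them fell and 2 rose. Of 64 integrase-type DNA-binding proteins, 20 fell and 1 rose in hy5 (11 to 22 fell with 1 library left out), while in WT 7 fell and 6 rose. Of 54 WRKY transcription factors, known mostly from defence and stress responses, 18 fell and 2 rose in hy5 (7 to 21 fell with 1 library left out), while in WT 6 fell and 4 rose. Of 18 CBL-interacting kinases, which act in calcium signalling, 7 fell and 1 rose in hy5, with a median of -0.26. The difference between the genotypes was not tested for these families. The integrase-type label includes the transcription factor genes ERF53, HRE1 and HRE2 described above, so that family is not a separate class from them.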
